A study of Mus musculus with 6 samples.

Results

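Of the 56636 gene rows in the deposited table, 9 encode the enzymes of the pentose phosphate pathway and a pair of other cytosolic enzymes that make NADPH. They were found by symbol, each matched 1 row, and all 9 passed the filter on low values, a mean over the 6 libraries of 1 TPM or more, as 12092 genes did. The cells were RAW264.7, a mouse macrophage-like line labelled as wild type, given for 24 h either a compound that the labels call 25-HC, without its full name or dose, or vehicle, with 3 libraries of bulk RNA per group. The series title concerns cholesterol homeostasis and tumour metastasis, and the design sets treated macrophages against vehicle. TPM is a transcript's abundance per length and per library total, so the sequencing depth behind each value is unknown. The labels name no separate cultures, so p-values measure the spread between libraries alone, which may be technical.

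The pentose phosphate pathway branches off glycolysis at glucose 6-phosphate. Its oxidative arm is irreversible and yields NADPH through a pair of dehydrogenases, and its non-oxidative arm interconverts sugar phosphates, so that ribose phosphate for nucleotides can be made or returned to glycolysis. Malic enzyme and the cytosolic isocitrate dehydrogenase make NADPH from malate and isocitrate. Macrophages spend NADPH on the oxidative burst, on nitric oxide, on the reduction of glutathione and thioredoxin, and on the synthesis of fatty acids and sterols.

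The vehicle libraries differed widely from each other and the 25-HC libraries hardly at all. Genes at 1 TPM or more numbered 11990, 11971 and 12005 in 25-HC 1, 2 and 3, against 11238, 9492 and 11994 in vehicle 1, 2 and 3. Across the tested genes, which are not independent replicates, Pearson r of log2(TPM + 1) was 0.972 to 0.975 within 25-HC and 0.807 to 0.938 within vehicle. Transcripts of ribosomal proteins made up 22.7% to 23.0% of TPM in each 25-HC library, against 26.6%, 37.2% and 20.8% in vehicle 1, 2 and 3, and mitochondrial transcripts 0.97% to 0.99% in 25-HC, against 0.54%, 1.16% and 0.62%. Longer transcripts were lower in vehicle 1 and 2 relative to the 25-HC mean. In vehicle 3 the median log2(TPM + 1) difference from that mean was 0.039 to 0.094 in all groups of genes by transcript length. Of 12 macrophage markers, 11 were measured, summing to 3897 to 3970 TPM in 25-HC and 2948 to 3821 TPM in vehicle, with Mertk at 0 in all libraries. Markers of lymphocytes, neutrophils, fibroblasts and epithelial cells, of which 1 of 24 was at a mean of 1 TPM or more, summed to at most 3.66, 2.55, 0.76 and 0.20 TPM in 25-HC and 4.73, 2.65, 0.11 and 0.23 TPM in vehicle, with the neutrophil marker Camp and the fibroblast marker Pdgfra at 0 in all libraries. Osteoclast markers, 6 of 7 measured with Calcr at 0, summed to 78.9 to 82.4 TPM in 25-HC and 44.1 to 103.7 TPM in vehicle. The part of these shifts in the enzyme results was not tested beyond the rescaled values given beside them.

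Idh1 was the enzyme that stood apart, 3.11-fold above its vehicle mean in 25-HC, while the pentose phosphate enzymes lay among the vehicle libraries or close to vehicle 3. By group means 7 of the 9 were higher in 25-HC and 2, Pgls and Taldo1, were lower. None of the 9 passed limma's test with Benjamini-Hochberg adjustment over all 12092 genes, and 1, Idh1, had an unadjusted p under 0.05. Over all genes, 0.00827% were called higher (1 gene) and 0% lower, and 8.24% and 2.94% had an unadjusted p under 0.05 in those directions. Idh1 and Rpia were higher in every 25-HC library than in every vehicle library, which is 22.2% of the 9, beside 22.6% of all genes tested. None of the 9 was lower without overlap, beside 8.1% of all genes. The count of separated enzymes is thus near the background. The median log2 difference, 25-HC minus vehicle, was 0.66 over the 9 and 0.52 over all genes tested, a shift that was not subtracted from the differences below. It was 0.028 over the 9 after median-ratio rescaling (0.0085 over all genes) and 0.0078 after the trend with transcript length was removed (0.0026 over all genes).

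**Figure D1:**
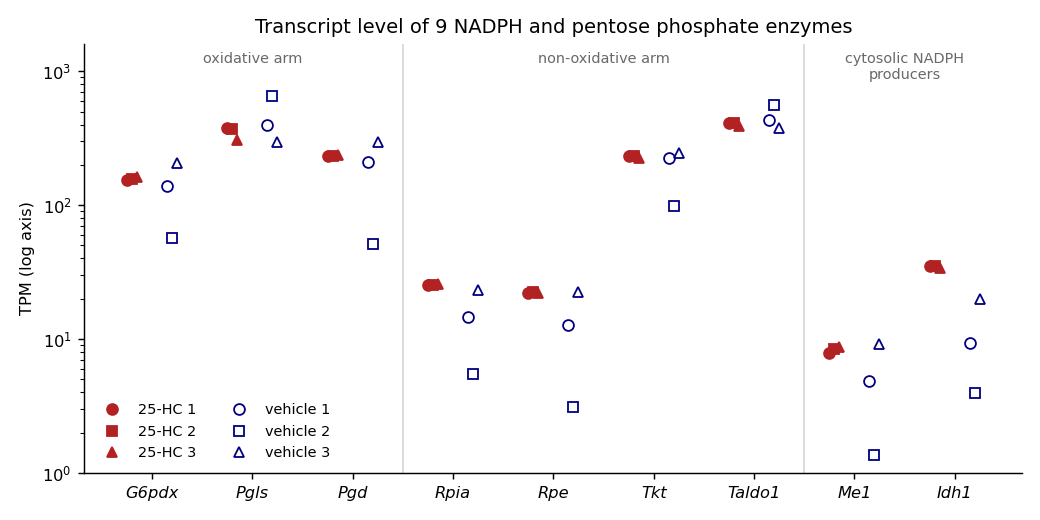
TPM of each enzyme (logarithmic axis) in each library, with 25-HC in filled red symbols left of vehicle in open symbols, and circles, squares and triangles for replicates 1, 2 and 3. The 25-HC symbols nearly coincide, vehicle 2 is far below the rest for 7 enzymes and above them for Pgls and Taldo1, and Idh1 is at 33.8 to 35.0 TPM in 25-HC against at most 20.0 TPM in vehicle.

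Promoter windows of RefSeq (GRCm38.p6, from 250 bases before to 50 after an annotated start) were found for all 9 genes, 12 windows in all, and 3 of them are printed. The first is that of Idh1, because it was the enzyme apart from the rest. Those of G6pdx and Me1, known targets of the antioxidant factor NRF2 whose values overlapped between the groups, were picked to stand beside it. Idh1 and Me1 each have another window that is not printed, and neither of those holds the core named next. Any part of NRF2 in the values was not tested. Capitals mark the core letters of the antioxidant response element, TGACNNNGC, searched on both strands.
Idh1 promoter, chr1:65186430-65186729, minus strand: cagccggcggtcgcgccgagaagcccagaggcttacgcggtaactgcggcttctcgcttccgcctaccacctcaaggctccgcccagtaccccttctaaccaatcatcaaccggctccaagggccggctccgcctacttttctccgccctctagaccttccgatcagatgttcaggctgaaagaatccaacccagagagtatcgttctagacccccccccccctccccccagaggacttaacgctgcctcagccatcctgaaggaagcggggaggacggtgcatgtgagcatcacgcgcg
G6pdx promoter, chrX:74428831-74429130, minus strand: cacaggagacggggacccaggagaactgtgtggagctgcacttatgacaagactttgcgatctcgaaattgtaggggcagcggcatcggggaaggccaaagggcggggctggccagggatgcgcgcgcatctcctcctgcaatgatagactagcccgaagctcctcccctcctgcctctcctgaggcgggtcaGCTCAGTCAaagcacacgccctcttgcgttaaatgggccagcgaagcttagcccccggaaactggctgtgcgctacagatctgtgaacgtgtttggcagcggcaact
Me1 promoter, chr9:86695865-86696164, minus strand: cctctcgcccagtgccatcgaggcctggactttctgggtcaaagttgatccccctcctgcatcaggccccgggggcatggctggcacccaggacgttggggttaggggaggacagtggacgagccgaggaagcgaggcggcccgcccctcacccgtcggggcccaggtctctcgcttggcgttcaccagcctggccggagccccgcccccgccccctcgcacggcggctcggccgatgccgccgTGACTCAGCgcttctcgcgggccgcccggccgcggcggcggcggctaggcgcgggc
The match in G6pdx is on the reverse strand and begins at position -57 from the start, and that in Me1 begins at -6. The core occurred in 3 of the 12 windows, the third being an internal start of Pgd, and in 12.4% of the 32851 windows of all genes. The core of the sterol response element, written TCACNCCAC, occurred in none of the 12 and in 1.24% of all windows. The GC box GGGCGG, which may overlap other motifs, occurred in 10 of the 12, from all 9 genes, and in 35.7% of all windows. These letters describe the windows and do not show that a factor binds there.

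Idh1 encodes the cytosolic and peroxisomal NADP-dependent isocitrate dehydrogenase, which makes NADPH while it converts isocitrate to 2-oxoglutarate. It was at 34.9, 35.0 and 33.8 TPM in 25-HC 1, 2 and 3, against 9.41, 3.97 and 20.0 TPM in vehicle 1, 2 and 3. Every 25-HC library was above every vehicle library, and vehicle 3 was the nearest. The means were 34.6 ± 0.680 TPM in 25-HC and 11.1 ± 8.16 TPM in vehicle (SD, n = 3 each), a 3.11-fold difference. On the log2(TPM + 1) scale, which understates changes of low genes, 25-HC minus vehicle was 1.79 with a standard error of 0.53 and a 95% confidence interval of 0.51 to 3.07. The unadjusted limma p was 0.0139 and the adjusted p was 0.389, so the call was not passed. Of all genes tested, 3.08% had a larger difference. In bulk RNA, more cells with the transcript and more transcript per cell cannot be told apart.

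The higher level of Idh1 in 25-HC was present under each way of scaling, with values that moved. After median-ratio rescaling, which divides each library by 1 factor, it was at 27.6, 28.2 and 26.9 in 25-HC and 9.67, 9.71 and 15.2 in vehicle, in rescaled TPM (log2 difference 1.22, limma adjusted p = 0.258). With the trend of transcript length removed it was at 29.5, 29.5 and 28.6 in 25-HC and 9.56, 8.85 and 16.1 in vehicle, in corrected TPM (log2 difference 1.32, limma adjusted p = 0.139), and 1.92% of the genes had a larger difference. Against vehicle 3 alone, the vehicle library most like the treated ones, the mean of 25-HC was 1.73-fold higher and the log2 difference was 0.76. Every 25-HC library was above vehicle 3 in 28.5% of all genes tested, and below it in 45.7%. Without vehicle 3 the log2 difference of Idh1 was 2.31 and its limma adjusted p was 0.0482, the single setting in which any of the 9 passed. In that setting 5.55% of all genes were called higher and 59.5% lay higher without overlap. Without vehicle 2 the log2 difference was 1.27 with an adjusted p of 0.165.

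**Figure D2:**
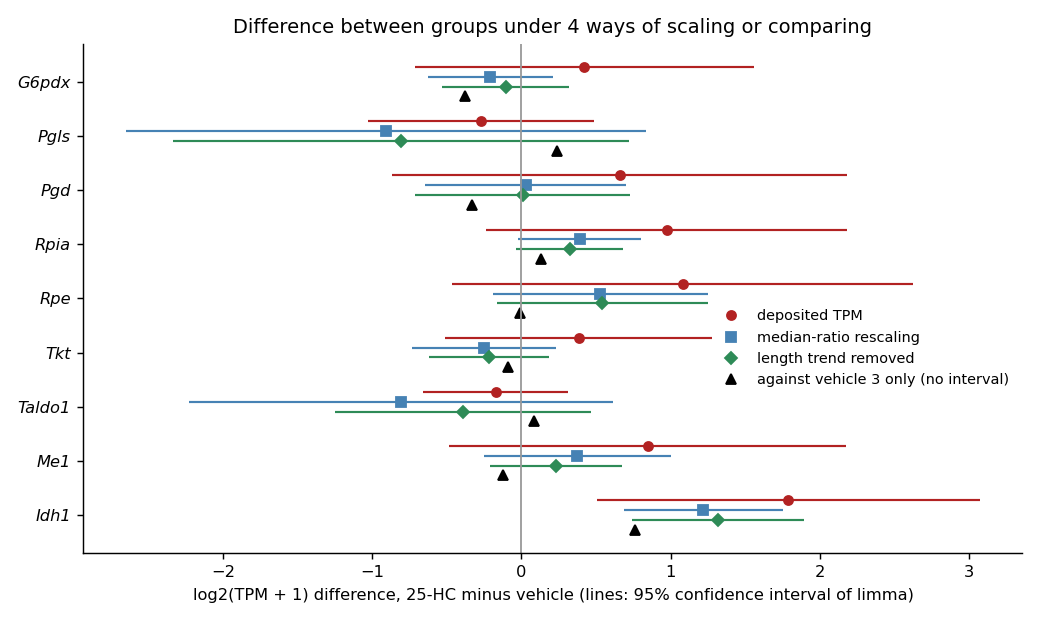
Difference in log2(TPM + 1), 25-HC minus vehicle, for each enzyme on the deposited values, after median-ratio rescaling and after removal of the length trend, with 95% confidence intervals of limma (unadjusted), and against vehicle 3 alone with no interval. The 4 points of Idh1 lie between 0.76 and 1.79 and those of Rpia between 0.13 and 0.97. Those of G6pdx, Tkt, Pgls, Pgd, Rpe, Taldo1 and Me1 fall on either side of 0.

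Me1 encodes the cytosolic malic enzyme, which makes NADPH from malate and was the lowest of the 9 enzymes per length. It was at 7.93, 8.47 and 8.70 TPM in 25-HC 1, 2 and 3 and at 4.84, 1.37 and 9.20 TPM in vehicle 1, 2 and 3. Vehicle 3 was above all 25-HC libraries, so the groups overlapped. The log2 difference was 0.85 (standard error 0.55, limma adjusted p = 0.396). Median-ratio rescaling gave 0.37, and vehicle 3 alone as the comparator gave -0.12.

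G6pdx encodes the X-linked glucose-6-phosphate dehydrogenase, the first and rate-limiting step of the oxidative arm. It was at 153.9, 157.2 and 161.9 TPM in 25-HC 1, 2 and 3, against 138.8, 56.5 and 205.5 TPM in vehicle 1, 2 and 3. The 25-HC libraries lay between vehicle 1 and vehicle 3. The log2 difference was 0.42 (95% confidence interval -0.71 to 1.56, limma adjusted p = 0.541), an interval that allows both a lower and a higher level. Its direction turned with the scaling, to -0.21 after median-ratio rescaling, where each 25-HC library (121.9 to 128.8) was below each vehicle library (138.1 to 155.8, rescaled TPM). Downward separation was seen there in 17.9% of all genes. Without vehicle 2 the log2 difference was -0.099. The retrogene G6pd2, a close copy of G6pdx, was listed at 0 TPM in 25-HC and at up to 0.06 TPM in vehicle.

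Pgls encodes the lactonase that follows G6pdx. It was at 376.5, 371.0 and 308.6 TPM in 25-HC and at 393.8, 652.2 and 296.6 TPM in vehicle, with vehicle 2 highest. The log2 difference was -0.27 (standard error 0.31, limma adjusted p = 0.552). It was -0.91 after median-ratio rescaling and -0.81 with the length trend removed, but 0.037 without vehicle 2 and 0.24 against vehicle 3 alone. Pgd, the 6-phosphogluconate dehydrogenase that makes the second NADPH and ribulose phosphate, was at 232.7, 231.3 and 236.0 TPM in 25-HC and at 210.0, 51.5 and 294.0 TPM in vehicle. Like G6pdx it lay in 25-HC above vehicle 1 and 2 and below vehicle 3. Its log2 difference was 0.66 (95% confidence interval -0.87 to 2.18, limma adjusted p = 0.487). Without vehicle 2 it was -0.091, with vehicle 3 as the only comparator -0.33, and on median-ratio scaled values 0.028.

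In the non-oxidative arm, Rpia encodes ribose-5-phosphate isomerase, which makes the ribose phosphate used for nucleotides. It was at 25.3, 25.5 and 25.9 TPM in 25-HC and at 14.6, 5.52 and 23.3 TPM in vehicle. The groups did not overlap, but the gap to vehicle 3 was small, with the 25-HC mean 1.10-fold above it. The log2 difference was 0.97 (standard error 0.50, limma adjusted p = 0.389), and it was 0.39 after median-ratio rescaling and 0.32 with the length trend removed, each without overlap. Rpe, the epimerase that makes xylulose phosphate, was at 22.2, 22.4 and 22.2 TPM in 25-HC and at 12.8, 3.10 and 22.4 TPM in vehicle. Vehicle 3 was level with the treated libraries. Its log2 difference was 1.08 (standard error 0.64, limma adjusted p = 0.392), and leaving out 1 library gave 0.37 (without vehicle 2) to 1.63 (without vehicle 3). After median-ratio rescaling, after quantile normalization and with the length trend removed the difference was 0.53, 0.49 and 0.54, and the groups did not overlap. In those settings 18.7%, 18.6% and 17.1% of all genes separated upward.

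Tkt, the transketolase, was at 233.7, 233.1 and 225.8 TPM in 25-HC and at 226.4, 99.2 and 245.8 TPM in vehicle. Apart from vehicle 2, its 5 libraries lay within a narrow range. The log2 difference was 0.38 (95% confidence interval -0.51 to 1.28, limma adjusted p = 0.490), -0.25 after median-ratio rescaling and -0.031 without vehicle 2. Taldo1, the transaldolase and the most abundant of the 9 per length, was at 407.9, 407.7 and 392.0 TPM in 25-HC and at 436.5, 564.5 and 380.3 TPM in vehicle. As with Pgls, vehicle 2 was highest and vehicle 3 lowest. The log2 difference was -0.17 (standard error 0.20, limma adjusted p = 0.552), and it was -0.81 after median-ratio rescaling.

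The spread among vehicle libraries was shared by the enzymes in 2 opposite orders. For 7 of them the level was lowest in vehicle 2, intermediate in vehicle 1 and highest in vehicle 3, an order seen in 67.1% of all genes tested. For Pgls and Taldo1 the order was reversed, as in 10.5% of all genes. The highest vehicle library exceeded the lowest 7.24-fold for Rpe, 6.72-fold for Me1 and 5.71-fold for Pgd, but 1.48-fold for Taldo1. Among the 25-HC libraries the ratio of highest to lowest was 1.01 for Rpe and at most 1.22, for Pgls. The coefficient of variation was 0.676% (Rpe) to 10.7% (Pgls) in 25-HC and 20.5% (Taldo1) to 76.4% (Me1) in vehicle.

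Transcript length accompanied this split in part. The longest annotated transcript of Taldo1 was 1362 nt, the shortest of the 9, and those of the others ran from 2302 nt (Idh1) to 3644 nt (Pgd and Rpia). Pgls, at 2688 nt by its longest transcript, has a principal transcript of 893 nt, and those of Pgd and Rpia are 2218 nt and 1829 nt. The length correction and the medians for genes of like length used the longest transcript. For Pgls, Pgd and Rpia they may thus rest on a length that does not apply. The annotation behind the deposited TPM is not given in the sources used here, so which length the authors' values used is unknown. In vehicle 2, log2(TPM + 1) minus the 25-HC mean was -2.84 for Idh1, -2.50 for Rpe and -2.16 for Pgd, against medians of -1.32, -1.32 and -1.54 for all genes of like length. It was 0.89 for Pgls and 0.49 for Taldo1. In vehicle 3 it was -0.76 for Idh1 where genes of like length had a median of 0.094, and between -0.24 and 0.38 for the other enzymes.

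**Figure D3:**
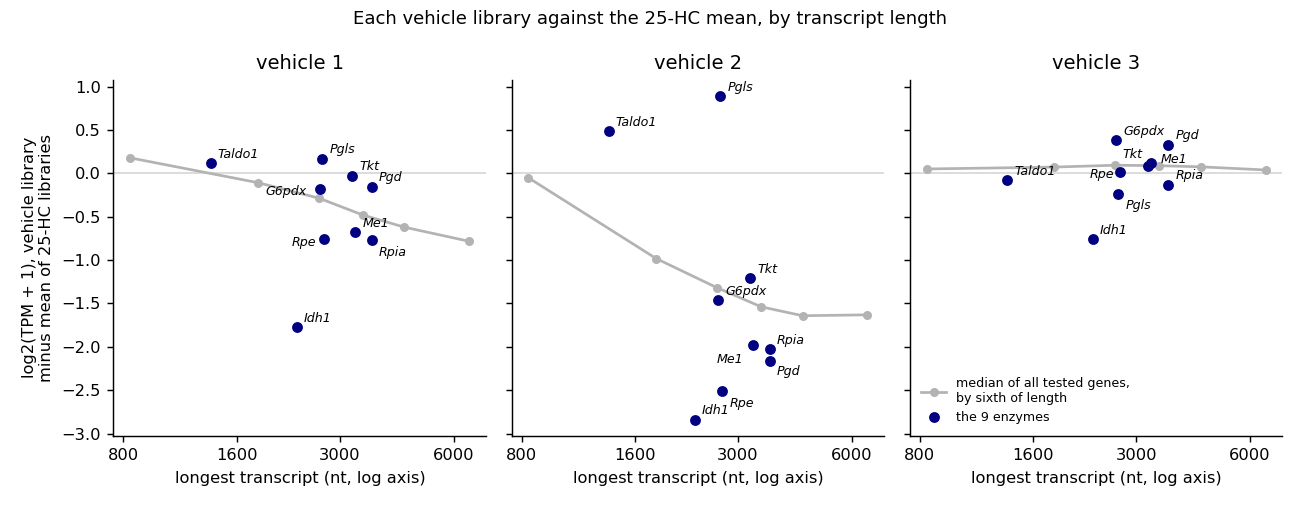
Difference in log2(TPM + 1) between each vehicle library and the mean of the 25-HC libraries, against the longest annotated transcript (nucleotides, logarithmic axis), for the 9 enzymes and for the median of all tested genes by sixth of length. Idh1, Rpia and Rpe are below the grey line in each vehicle library. Idh1 is at -1.77, -2.84 and -0.76 in vehicle 1, 2 and 3. Pgls, Taldo1 and Tkt are above the line in vehicle 1 and 2.

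Summed over the 9 enzymes, the libraries were close, at 1495, 1492 and 1415 TPM in 25-HC 1, 2 and 3 and 1447, 1438 and 1497 TPM in vehicle 1, 2 and 3. The make-up of that sum was not. Taldo1 and Pgls gave 52.5%, 52.2% and 49.5% of it in 25-HC and 57.4%, 84.6% and 45.2% in vehicle. The oxidative arm (G6pdx, Pgls and Pgd) summed to 743 ± 31.7 TPM in 25-HC and 766 ± 27.3 TPM in vehicle (SD, n = 3 each). The non-oxidative arm (Rpia, Rpe, Tkt and Taldo1) summed to 681 ± 13.3 TPM in 25-HC and 678 ± 10.6 TPM in vehicle. Their ratio was 1.09 ± 0.0255 in 25-HC and 1.13 ± 0.0547 in vehicle, with overlapping libraries. The 2 dehydrogenases that make NADPH in the oxidative arm, G6pdx and Pgd, together reached 386.6, 388.5 and 397.9 TPM in 25-HC and 348.8, 108.0 and 499.5 TPM in vehicle, so the even sum of that arm in vehicle 2 came from Pgls.

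Ratios within a library do not change with a scale factor of that library. Idh1 stood at 22.7, 22.3 and 20.9 TPM per 100 TPM of G6pdx in 25-HC 1, 2 and 3, against 6.78, 7.03 and 9.74 in vehicle 1, 2 and 3. The groups did not overlap, and vehicle 1 and 2 were nearly level although both genes were far lower in vehicle 2 than in vehicle 1. The log2 ratio, 25-HC minus vehicle, was 1.50, and it was 1.51 with the length trend removed and 1.09 after quantile normalization. Me1 was at 5.15, 5.39 and 5.37 TPM per 100 TPM of G6pdx in 25-HC and at 3.49, 2.43 and 4.48 in vehicle, also without overlap. Of the 8 other enzymes, 4 (Rpia, Rpe, Me1 and Idh1) were higher relative to G6pdx in every 25-HC library and 0 were lower, beside 35.2% and 5.43% of all genes set against G6pdx in the same way. Idh1 was 4.40, 4.14 and 3.88 times Me1 in 25-HC, against 1.94, 2.90 and 2.18 times in vehicle. The ratio of Taldo1 to Tkt was 1.74 ± 0.00653 in 25-HC and was 1.93, 5.69 and 1.55 in vehicle. These ratios were chosen as descriptions and were not tested.

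**Figure D4:**
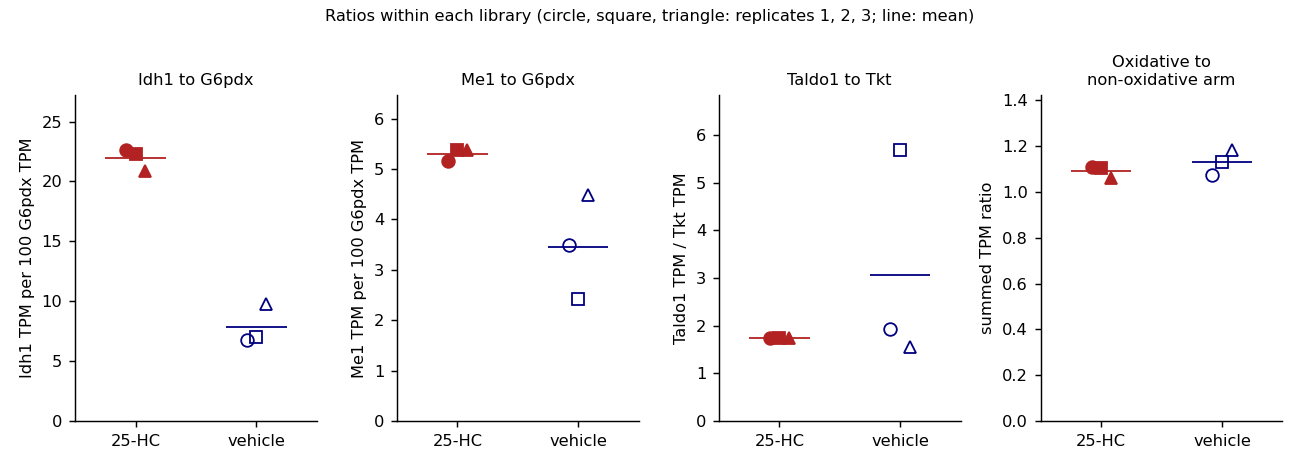
Ratios between enzymes within each library, with 25-HC left of vehicle, circles, squares and triangles for replicates 1, 2 and 3 and lines for group means: Idh1 and Me1 in TPM per 100 TPM of G6pdx, Taldo1 TPM over Tkt TPM, and summed oxidative over summed non-oxidative TPM. Idh1 relative to G6pdx is at 20.9 to 22.7 in 25-HC against 6.78 to 9.74 in vehicle, while the ratio of the arms overlaps.

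Profiles were compared by the root mean square distance between centred log2(TPM + 1) values over the 6 libraries. The distance to the closest other enzyme was largest for Idh1, at 0.41 from Rpe. Distances to all the other enzymes were not ranked. Rpia and Me1 were closest to each other, at 0.094, G6pdx and Tkt were paired at 0.17, and Pgls and Taldo1 at 0.19. Among 6495 other genes that averaged 10 TPM or more, those nearest to the median profile of the 9 were Mrfap1, Scamp3, Rhot1, Sptssa and Mitd1, at 0.047 to 0.051. Mrfap1 was at 306 to 308 TPM in 25-HC and at 252, 77.9 and 306 TPM in vehicle 1, 2 and 3, so these genes shared the order of the vehicle libraries.

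Enzymes around the pathway were described by the same counts, with none of the lists' members passing limma's adjusted threshold over all genes in either direction. Of all genes tested, 22.6% were higher and 8.1% lower without overlap on the deposited values, and 18.7% and 17.9% after median-ratio rescaling. Against vehicle 3 alone the median log2 difference of all genes was -0.071. Of 16 listed genes of pathway branches and outlets, 11 were measured, 0 with an unadjusted p under 0.05, 2 were higher without overlap and 0 lower (1 and 1 after median-ratio rescaling), and their median log2 difference was 0.55 (-0.14 against vehicle 3 alone). The share separated upward is close to the 22.6% of all genes. Prps2, which activates ribose phosphate for nucleotide synthesis, was at 22.8, 20.9 and 19.3 TPM in 25-HC and 10.2, 7.78 and 18.3 TPM in vehicle, with overlap after rescaling. Prpsap1, a regulatory partner of that enzyme, was at 42.9 ± 2.53 TPM in 25-HC and 45.5 ± 2.19 TPM in vehicle (SD, n = 3 each).

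Of the other NADPH producers and NAD kinases, 11 of 13 were measured, 3 were higher without overlap and 0 lower (5 and 1 after median-ratio rescaling), with a median log2 difference of 0.95 (-0.083 against vehicle 3 alone) and 2 genes with an unadjusted p under 0.05. Over all genes 22.6% and 8.1% separated (18.7% and 17.9% after rescaling), and 8.24% were higher at that p. Aldh1l2, the mitochondrial formyltetrahydrofolate dehydrogenase, was at 14.1, 11.3 and 12.7 TPM in 25-HC, against 0.94, 0.44 and 3.63 TPM in vehicle (log2 difference 2.54, limma adjusted p = 0.389). Nadk, the cytosolic kinase that makes NADP from NAD, was at 293.2, 290.1 and 293.1 TPM in 25-HC and 182.5, 62.7 and 292.6 TPM in vehicle. Idh2, the mitochondrial counterpart of Idh1, was chosen after its values were seen. It was at 233.2, 233.7 and 243.2 TPM in 25-HC and 206.1, 38.0 and 264.4 TPM in vehicle, so unlike those of Idh1 its groups overlapped. Whether the differences of Idh1 and Idh2 differ was not tested.

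Of the genes that supply citrate and malate to the cytosol, all 10 were measured, 3 were higher and 1 lower without overlap (3 and 1 after median-ratio rescaling), with a median log2 difference of 0.80 (-0.056 against vehicle 3 alone). These counts are near the all-gene shares of 22.6% and 8.1%. Aco1, the cytosolic aconitase that makes the isocitrate used by Idh1, was at 17.2, 16.7 and 17.1 TPM in 25-HC and 7.19, 1.49 and 14.6 TPM in vehicle, without overlap in either scaling. Mdh2, the mitochondrial malate dehydrogenase, was at 582 ± 8.29 TPM in 25-HC and 647 ± 45.5 TPM in vehicle, and overlapped after rescaling. Of the listed genes that handle glucose or glucose 6-phosphate, all 8 were measured, and some of them take glucose 6-phosphate away from the pathway. In this list 2 were higher and 2 lower without overlap, beside 22.6% and 8.1% of all genes. After median-ratio rescaling the counts were 1 and 3, beside 18.7% and 17.9%. The median log2 difference of the list was 0.62 (-0.43 against vehicle 3 alone). Gpi1, the isomerase that competes with G6pdx for glucose 6-phosphate, was at 360.1, 362.1 and 356.7 TPM in 25-HC and 535.8, 472.5 and 421.9 TPM in vehicle, lower without overlap in both scalings (log2 difference -0.40, limma adjusted p = 0.389).

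Genes of processes that draw on NADPH fell into 3 lists, in which not every gene uses NADPH itself. Enzymes of fatty acid and sterol synthesis, all 13 measured, had a median log2 difference of 1.64 (0.59 against vehicle 3 alone), with 10 higher and 0 lower without overlap (10 and 1 after median-ratio rescaling) and 7 with an unadjusted p under 0.05. Over all genes 22.6% and 8.1% separated (18.7% and 17.9% after rescaling), and 8.24% were higher at that p. Fads2, a fatty acid desaturase, had a log2 difference of 1.64, and Tecr, the reductase of fatty acid elongation, was at 275 ± 1.96 TPM in 25-HC and 211 ± 10.9 TPM in vehicle, with overlap after rescaling. Redox defence, 15 of 16 measured, had a median of 0.21, which turned to -0.39 after median-ratio rescaling, -0.21 with the length trend removed and -0.27 against vehicle 3 alone. In it 0 were higher and 1 lower without overlap (0 and 5 after median-ratio rescaling), beside 22.6% and 8.1% of all genes (18.7% and 17.9%). Blvrb, a biliverdin and flavin reductase, was the separated gene, at 139 ± 3.75 TPM in 25-HC and 174 ± 21.5 TPM in vehicle (log2 difference -0.31, limma adjusted p = 0.394), and Gpx1, the glutathione peroxidase, was at 1157 ± 21.2 TPM in 25-HC and 1217 ± 238 TPM in vehicle. The oxidase NOX2, all 6 genes measured, had a median of 0.31, which turned to -0.32 after median-ratio rescaling, -0.15 with the length trend removed and -0.024 against vehicle 3 alone. In it 2 were higher and 1 lower without overlap (2 and 1 after rescaling), beside 22.6% and 8.1% of all genes (18.7% and 17.9%). Cybb, its catalytic subunit, was at 25.0, 22.7 and 23.9 TPM in 25-HC and 7.18, 3.41 and 17.1 TPM in vehicle, while Cyba, its membrane partner, was at 444 ± 7.28 TPM in 25-HC and 533 ± 52.4 TPM in vehicle, with overlap after rescaling.

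Transcription factors and sensors known to act on these enzymes, all 10 measured, had a median log2 difference of 1.52 (0.22 against vehicle 3 alone), with 7 higher and 0 lower without overlap (7 and 1 after median-ratio rescaling) and 5 with an unadjusted p under 0.05. The shares of all genes were 22.6% and 8.1% (18.7% and 17.9% after rescaling), and 8.24% higher at that p. Nfe2l2, which encodes NRF2, was at 27.5, 28.6 and 28.9 TPM in 25-HC and 8.34, 1.38 and 13.0 TPM in vehicle (log2 difference 2.11, limma adjusted p = 0.389). Atf4, which drives the integrated stress response and is mostly controlled at translation, was at 566 ± 6.87 TPM in 25-HC and 193 ± 149 TPM in vehicle. G6pdx, Pgd, Tkt, Taldo1 and Me1, which are among the enzymes known as NRF2 targets, overlapped between the groups on the deposited values. Of all genes, 22.6% separated upward and 8.1% downward on those values, so most overlapped. Whether NRF2 acted on any of the enzymes was not tested.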

How the data were processed

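Bulk RNA was measured in 6 libraries, 3 with 25-HC and 3 with vehicle, made with the TruSeq RNA kit from 1 µg of total RNA, per the labels' protocols. The submitters' processing notes name HISAT2, StringTie, RSEM and the build GRCm39, with no versions or order. The authors deposited TPM per gene, which keep no counts, and the 11 empty columns of the table were ignored. Symbols shared by several identifiers went to the most abundant of them, and genes with no symbol (2623) were named by identifier. Genes at a mean of 1 TPM or more entered limma 3.58.1 (R 4.3.3) as log2(TPM + 1) (mean-variance trend, two-sided, Benjamini-Hochberg, threshold 0.05), after a check on simulated data. All simulated libraries had the spread of the 25-HC libraries, so the check does not cover the wider spread of the vehicle libraries. All 6 libraries entered, with no block. Folds are ratios of mean TPM. Groups were called non-overlapping where the lowest library of 1 group was above the highest of the other.

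Median-ratio rescaling divided vehicle 2 by 0.409 and the others by 0.973 to 1.32. The length correction subtracted a loess trend per library (span 0.75, degree 2) on the longest transcript of GENCODE release M21, matched by identifier for 92.1% of tested genes. Members, the 8 gene lists and settings were chosen with earlier results of these data known. Named genes are the 9 enzymes, per list the called or else the separated gene with the smallest p and the gene with the highest mean TPM, and the 5 genes nearest to the enzymes' median profile. Outside this rule Idh2 and the retrogene G6pd2 are named, chosen after their values were seen. Python 3.11.15, pandas 2.3.3, numpy 2.4.6 and matplotlib 3.10.9 were used.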

Additional observations from a re-analysis of the deposited data

How the results depend on the processing

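Idh1 and Rpia kept their direction under 18 other settings. Their separation could be lost only where libraries were rescaled against each other (median-ratio, quantile, length correction and removal of mitochondrial transcripts), and it held in each. The log2 difference of Idh1 ran from 0.76 to 2.31 and that of Rpia from 0.13 to 1.40. Leaving out each library in turn gave 2 to 6 enzymes higher without overlap and 0 to 2 lower. The 6 and 2 came without vehicle 3, where 59.5% and 13.2% of all genes separated upward and downward. Without any other library it was 2 and 0, beside 23.6% to 27.1% and 9.23% to 16.9% of all genes. Median-ratio rescaling put 3 higher and 1 lower, beside 18.7% and 17.9%. Against vehicle 3 alone 4 were higher and 5 lower, beside 28.5% and 45.7%. Against vehicle 3 alone the log2 differences of G6pdx (-0.38), Pgd (-0.33), Me1 (-0.12), Tkt (-0.090), Rpe (-0.011), Pgls (0.24) and Taldo1 (0.082) turned sign. Without vehicle 2 those of G6pdx (-0.099), Pgd (-0.091), Tkt (-0.031) and Pgls (0.037) did. Over the fits that leave out 1 library these ran from -0.099 to 0.82 for G6pdx, -0.091 to 1.15 for Pgd, -0.031 to 0.62 for Tkt and -0.53 to 0.037 for Pgls. Under median-ratio rescaling G6pdx (-0.21) and Tkt (-0.25) turned, and with the length trend removed they did too (-0.11 and -0.22). The cause was not tested.

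Over all genes limma called 1 higher and 0 lower. It called 0 higher with a pseudocount of 5, with no filter, with a mean of at least 5 TPM and with protein-coding genes only. Quantile normalization gave 4 higher and 1 lower, removal of the length trend 16 and 3, and median-ratio rescaling 1 lower. Leaving out 1 library gave 0 to 671 higher and 0 to 51 lower, with 671 and 51 without vehicle 3 and 9 and 4 without vehicle 2. Where none was called, 5.54% to 10.9% of genes were higher at an unadjusted p under 0.05 with all libraries kept. With a replicate block 0 genes were called, and Idh1 had an adjusted p of 0.415. Deviations of same-numbered libraries from their group means correlated at -0.013, 0.056 and 0.030, and not every library correlated best with its own number. The wide spread among vehicle libraries enters these values, so they cannot decide whether the numbers pair the libraries. The labels state no pairing. The log2 ratio of the arms, -0.051, was -0.28 with the length trend removed, and that of Idh1 to G6pdx, 1.50, was 1.09 after quantile normalization. TPM without counts gives no counting error.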
